A study of Brassica oleracea with 7 samples.

Results

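Long gene loci of Brassica oleracea, the species of cabbage and broccoli, were described across 7 tissues. A long locus was a row of the deposited gene table whose locus spanned 10000 bases or more and did not overlap the previous or next locus on its scaffold. The rule used position alone, with no expression value, and it found 296 loci among 39481 rows (0.75%). They are set beside the other 39185 rows.

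Buds measured 0.8 cm, flowers had all opened within a day, and siliques, the seed pods, were taken 15 days after pollination. Leaf, stem and root were from 7-week plants, and callus is an unorganised mass of dividing cells. Callus was cultured at 25 °C, whereas the plants behind the other tissues grew in a greenhouse at 15 to 25 °C. Poly(A)+ RNA of each tissue was sequenced as 1 library, so no difference between tissues has a replicate check and no p-value is given. The labels name no cultivar and no treatment, and whether plants were pooled is not given in the sources used here. The gene IDs are not paired with gene names, and 0 of them matched the RefSeq genes supplied for the species, so the tissue labels could not be checked against marker genes and the functions of the long loci are not given.

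A locus holds the exons of a gene and the introns between them. Introns are copied into the first transcript and then spliced out, so a long locus can come from a long messenger RNA, from long introns, or from both. In plants most introns are short, and long ones often hold inserted transposable elements. The deposited unit, FPKM, divides the fragments of a gene by the length of its exon model and by the size of the library, and therefore does not grow with intron length. In bulk tissue, fewer cells of a type and less RNA per cell cannot be told apart.

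The long loci spanned a median of 12012 bases (quartiles 10730.5 and 14898.5), against 1664 bases in other rows. The longest was Bol041586 (Scaffold000010, 3292645 to 3373434), at 80790 bases, and it was listed at 0 in all 7 tissues. Next came Bol043693 (Scaffold000004, 2242786 to 2302756), at 59971 bases, and Bol010161 (Scaffold000225, 715994 to 764240), at 48247 bases. Bol010161 lay between 2.41 FPKM in root and 6.42 FPKM in stem and was at 4.07 to 5.14 FPKM in the other tissues. Positions refer to the scaffolds named in the table and are 1-based, and the build is not given in the sources used here. The long loci lay on 190 of 699 scaffolds, at most 9 on a scaffold, and 5 pairs of them were next to each other in the table. The gap to the neighbouring row had a median of 5829 bases, against 3961 bases for other rows that overlap no neighbour.

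Overlap was common among loci of this span. Of 881 loci of 10000 bases or more, 585 (66.4%) overlapped a neighbour and were set aside by the rule, against 2055 of 38600 shorter loci (5.32%). These overlapping loci differed from the long loci in structure. Their coding sequence, inferred as described in the next paragraph, had a median of 1077 bases and took 4.91% of the span. Overlap could be judged only against rows in the table, and 6361 of the ID numbers between 96 and 45937 had no row in it. For 210 of the 296 long loci, the rows on both sides carried the next ID numbers or the locus was at the edge of its scaffold.

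Coding length was inferred from the deposited intervals, which imply how many fragments lie behind each FPKM value. It could be inferred for 262 of the 296 long loci. Of the other 34, 20 were listed at 0 in all tissues and so carried no fragments. The long loci had a median coding length of 2922 bases (quartiles 1181 and 5765), against 972 bases in other rows. Coding sequence took a median of 23.3% of their span, against 59.2% in other rows. None of the 262 was intronless, against 1870 of 35293 other rows (5.30%), but a gene without introns would need a coding length of 10000 bases to be counted here. Spearman's rho between span and coding length across the 262 loci was -0.07, which is a description over genes that share their libraries.

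The long loci were therefore of unlike kinds. In 127 of the 262 the coding length was 3000 bases or more, and in 50 it was under 1000 bases. At the upper end, Bol001809 (Scaffold000421, 92944 to 110098) had a coding length of 15234 bases, 88.8% of its span. Bol017079 (Scaffold000150, 959377 to 976429) had 14091 bases, 82.6% of its span. At the lower end, Bol021969 (Scaffold000111, 899644 to 916549) had 213 coding bases, 1.26% of its span. Bol010169 (Scaffold000225, 818139 to 832908) had 243 bases and was above 0 in bud alone, at 0.603 FPKM on 2 fragments. Bol043693, the second longest locus, had 393 coding bases, 0.655% of its span. Coding sequence was under 10% of the span in 79 of the 262 loci and at least 50% in 57. Because of their longer coding sequence, an FPKM of 1 rested on more fragments in the long loci, with a median of 39.6 against 13.2 in other rows.

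Over all lengths, long loci were detected as often as other genes. An FPKM of 1 or more in at least 1 tissue, taken as detection, was reached by 232 of 296 long loci (78.4%, 95% Wilson interval 73.3% to 82.7%) and by 30713 of 39185 other rows (78.4%). Over all rows the share was also 78.4%. At similar coding length the share of long loci was the lower one, with 88.2% (81.4% to 92.7%) against 93.6% of other rows (92.1% to 94.9%) at 3000 bases or more, and 83.0% (75.7% to 88.4%) against 85.1% (84.7% to 85.4%) below. The intervals overlapped in both comparisons, and a coding length could be inferred only for loci with fragments. Wilson intervals here treat genes as independent draws and describe these libraries. Another 44 long loci stayed above 0 but under 1 FPKM, and 20 (6.76%, 4.42% to 10.2%) were listed at 0 in all tissues, against 5.07% of other rows and 5.08% of all rows. Bol018322 (Scaffold000139, 162846 to 203036), at 40191 bases, was the second longest of the loci listed at 0, after Bol041586. The loci beside the span threshold were all low. Bol038679, at 10003 bases, peaked at 0.817 FPKM in leaf, and Bol005098, at 10017 bases, at 4.92 FPKM in callus. Just outside, Bol038734, at 9999 bases, was above 0 in leaf alone, at 0.108 FPKM, and Bol041232, at 9994 bases, peaked at 2.71 FPKM in callus.

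At 1 FPKM, detected long loci were active in more tissues than other detected genes. Of the 232, 148 (63.8%, 57.4% to 69.7%) reached 1 FPKM in all 7 tissues, against 51.6% of other detected rows (51.1% to 52.2%) and 51.7% of all detected rows. Only 14 (6.03%, 3.63% to 9.87%) did so in a single tissue, against 11.6% of other rows (11.2% to 11.9%) and 11.5% of all. The single tissue was silique for 6, callus for 4, leaf for 2, bud for 1 and root for 1. Among the 3550 other rows detected in a single tissue, silique also led, with 873. Bud followed with 836, callus with 788, leaf with 417, root with 320, flower with 175 and stem with 141. The tissue specificity index tau, which is 0 for an even profile and 1 for a gene confined to a single tissue, had a median of 0.330 in the long loci (95% order-statistic interval 0.295 to 0.369), against 0.387 in other rows. It reached 0.85 in 10 long loci (4.31%, 2.36% to 7.75%), against 10.6% of other rows and 10.6% of all. With detection at 2 FPKM, 108 of 219 long loci (49.3%, 42.8% to 55.9%) were detected in all 7 tissues. The share of other rows was then 44.9%, within that interval.

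Breadth was also compared at similar coding length. Among detected loci with a coding length of 3000 bases or more, 86 of 112 long loci (76.8%, 68.2% to 83.6%) and 71.6% of other rows (68.8% to 74.3%) were detected in all 7 tissues, and the intervals overlapped. Below 3000 bases, 56 of 112 long loci (50%, 40.9% to 59.1%) and 50.9% of other rows were. The lower group joins bands that differed in direction, by amounts like the difference over all detected loci. Under 1000 bases 59.5% of long loci (44.5% to 73.0%) and 45.4% of other rows were detected in all 7 tissues, between 1000 and 2000 bases 44.7% (31.4% to 58.8%) and 55.4%, and between 2000 and 3000 bases 43.5% (25.6% to 63.2%) and 62.6%. The intervals of long loci and other rows overlapped in each of these bands. The split at 3000 bases was made after values were seen. Median tau was 0.277 in long loci of 3000 coding bases or more and 0.287 in other rows of that length, and 0.397 and 0.392 below it.

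The most even long loci were Bol021420 (Scaffold000115, 36084 to 46258) and Bol036901 (Scaffold000027, 2190878 to 2206562), with tau of 0.0842 and 0.0920. Bol021420 was at 18.8 FPKM in bud, 21.2 in flower, 20.3 in silique, 22.8 in leaf, 16.7 in stem, 21.8 in root and 27.0 in callus. Bol036901 was at 25.6 FPKM in bud, 28.6 in flower, 28.5 in silique, 24.7 in leaf, 20.0 in stem, 17.1 in root and 33.2 in callus. Both were highest in callus, and in both the lowest tissue was within 2-fold of the highest.

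The level of long loci was in the middle of the range, with few abundant members. The highest FPKM over the tissues had a median of 9.96 in detected long loci (8.53 to 12.1), against 13.6 in other detected rows (13.3 to 13.8). The upper quartile was 20.3 FPKM, against 35.6 FPKM, and the maximum 423.8 FPKM, against 16016 FPKM. At similar coding length the median highest FPKM of long loci was also the lower one. At 3000 bases or more it was 8.64 (7.46 to 9.98), against 10.4 (9.55 to 11.3). Below 3000 bases it was 12.6 (9.58 to 17.4), against 13.8 (13.48 to 14.04). The intervals overlapped in both groups. With coding length within the quartiles of the long loci they did not, with 10.03 (7.48 to 12.7) against 13.1 (12.8 to 13.5). By tissue the order was different. Over all 296 long loci, the median was 2.04 FPKM in bud, 2.50 in flower, 2.91 in silique, 2.81 in leaf, 2.25 in stem, 2.41 in root and 5.21 in callus. Over other rows it was 2.87 FPKM in bud, 1.90 in flower, 2.50 in silique, 2.31 in leaf, 1.73 in stem, 1.27 in root and 3.25 in callus. The median long locus was thus above the median other row in every tissue but bud.

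**Figure D1:**
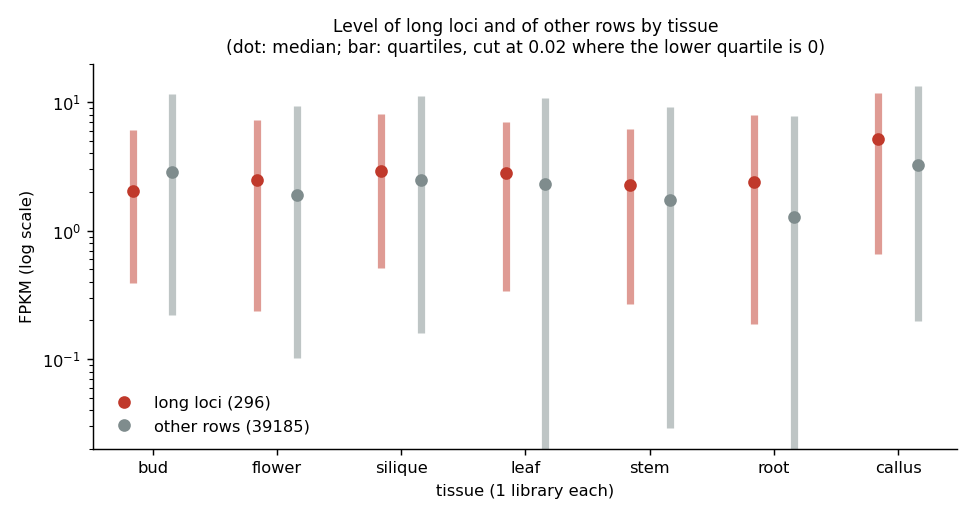
FPKM (log scale) of the 296 long loci and of the 39185 other rows in each tissue, with dots at the median and bars from the lower to the upper quartile. In bud the long loci lie lower (median 2.04 against 2.87 FPKM), and in callus they lie higher (5.21 against 3.25 FPKM).

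At 1 FPKM, the share detected was higher in long loci in every tissue, bud included, where the median was lower. In root, 184 long loci (62.2%, 56.5% to 67.5%) reached 1 FPKM, against 52.6% of other rows and 52.7% of all rows. In stem 64.9% did (59.3% to 70.1%), against 55.9% and 56%, in callus 72.0% (66.6% to 76.8%), against 63.5% and 63.6%, and in silique 67.6% (62.0% to 72.6%), against 60.6% and 60.6%. In leaf the share was 63.9% (58.2% to 69.1%), against 58.5% and 58.6%, and in flower 62.8% (57.2% to 68.1%), against 57.7% and 57.8%, so that both intervals reached the share of other rows. In bud the share was 65.5% (60.0% to 70.7%), against 63.1% and 63.2%, also within the interval. At 2 FPKM the order turned in bud, with 50.3% (44.7% to 56.0%) against 55.1% of other rows, and stayed in every other tissue. The shares by tissue were not compared at similar coding length.

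The most abundant long loci of each tissue had coding sequences shorter than the median long locus. Bol011670 (Scaffold000209, 592949 to 612603), with 663 coding bases in a span of 19655, was the most abundant in bud, silique, stem and callus. It was at 289 FPKM in bud, 144 in flower, 291 in silique, 133 in leaf, 424 in stem, 8.05 in root (deposited interval 6.16 to 9.93) and 258 in callus. The 6 other tissues lay far above root, and the log2 ratio of callus over root was 4.84 on the log2(FPKM + 1) scale, which understates changes of low values. Bol031603 (Scaffold000054, 568763 to 582978), with 585 coding bases, was at 137 FPKM in bud, 26.8 in flower, 89.1 in silique, 143 in leaf, 80.7 in stem, 57.7 in root and 214 in callus. Bol029871 (Scaffold000063, 726181 to 742366), with 1176 coding bases, was at 76.0 FPKM in bud, 224 in flower, 71.2 in silique, 60.1 in leaf, 118 in stem, 21.9 in root and 40.3 in callus. It was the most abundant long locus of flower. Bol025113 (Scaffold000089, 1070666 to 1081640), with 528 coding bases, was second in silique at 125 FPKM and between 44.8 FPKM (stem) and 115 FPKM (bud) elsewhere.

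In root, Bol027495 (Scaffold000076, 160825 to 172887) and Bol019809 (Scaffold000128, 720300 to 731880) were the most abundant. Bol027495 was at 155 FPKM in root, 41.7 in stem, 34.2 in callus, 20.5 in bud, 14.1 in silique, 8.05 in leaf and 7.02 in flower. Bol019809 was at 137 FPKM in root, 57.3 in silique, 44.3 in stem, 38.6 in flower, 24.2 in callus, 24.1 in bud and 0.336 in leaf (0.0354 to 0.636), where 5 fragments were implied. Leaf was the outlying tissue of Bol019809, and its leaf value lay below all other tissues by a wide margin.

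**Figure D2:**
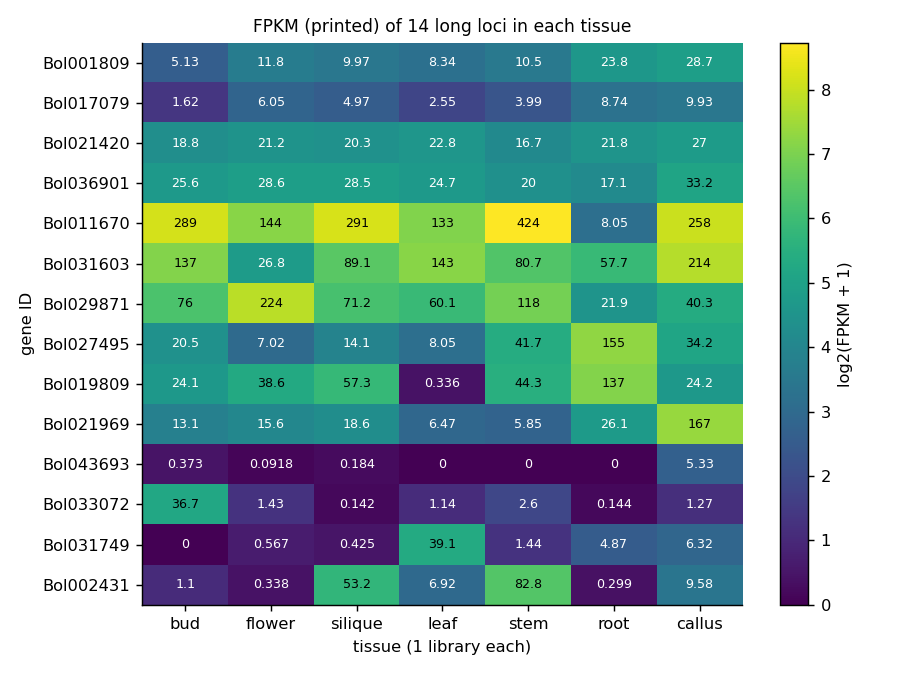
FPKM of 14 named long loci (rows) in each of the 7 tissues (columns), printed in the cells and coloured by log2(FPKM + 1). Bol021420 and Bol036901 vary little, while Bol011670 is low in root (8.05 FPKM) and Bol019809 low in leaf (0.336 FPKM).

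Callus was the tissue of the highest FPKM for 116 of the 232 detected long loci (50%, 43.6% to 56.4%), against 24.0% of other detected rows (23.6% to 24.5%) and 24.2% of all detected rows. The other tissues held fewer: leaf 26 (11.2%, against 19.3% of other rows and 19.2% of all), root 25 (10.8%, against 11.6% and 11.6%), silique 22 (9.48%, against 11.7% and 11.7%), bud 19 (8.19%, against 14.4% and 14.4%), flower 18 (7.76%, against 11.6% and 11.6%) and stem 6 (2.59%, against 7.33% and 7.29%). The margin of callus was small. Over the next tissue it had a median of 0.43 on the log2 scale (quartiles 0.28 and 0.72), and 14 of the 116 (12.1%) exceeded the next tissue by 2-fold or more. In other rows highest in callus the median margin was 0.45, and 19.6% exceeded 2-fold. Root was next for 54 of the 116 (46.6%), flower for 23, leaf for 17, silique for 8, stem for 8 and bud for 6. The next tissue was not counted in other rows, so whether this order is particular to long loci is not known.

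This margin was of the size of the scaling between libraries, so the tissue named as highest rested on the scaling. Rescaling by trimmed means of log ratios lowered callus by 0.40 and raised root by 0.41 on the log2 scale. After it, callus was highest for 44 of 230 detected long loci (19.1%, 14.6% to 24.7%), against 12.3% of other rows (11.9% to 12.7%). Root was then highest for 80 long loci (34.8%, 28.9% to 41.1%), against 21.2% of other rows (20.7% to 21.6%). Of the 116 loci highest in callus as deposited, 2 were no longer detected, 44 were still highest in callus and 51 were highest in root. Other rows highest in callus were not followed in this way. Scaling by the fragments in gene models instead went the other way. Callus was then highest for 54.3% of long loci (47.9% to 60.6%), against 26.1% of other rows. Root was then highest for 6.47% (3.96% to 10.4%), against 9.61%. The move from callus to root thus depended on the scaling chosen. Long loci were more often highest in callus than other rows on each of these scales.

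**Figure D3:**
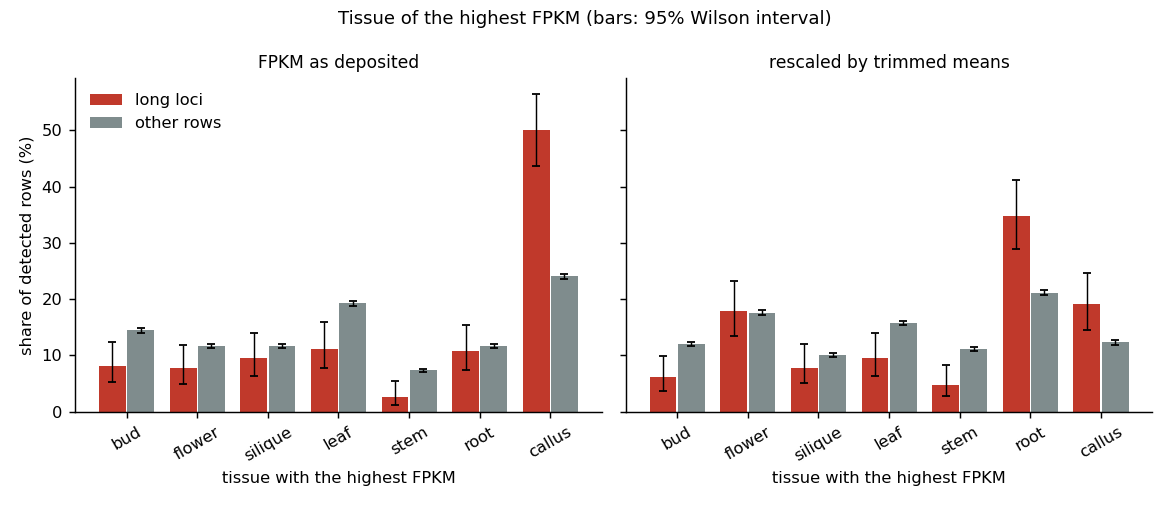
Share of detected rows with their highest FPKM in each tissue, for long loci and other rows, as deposited (left) and after rescaling by trimmed means (right), with 95% Wilson intervals. Callus leads among long loci as deposited (50% against 24.0% of other rows), and root leads after rescaling (34.8% against 21.2%).

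Scaling a library shifts long loci and other rows together, so the place of each tissue within a gene was also compared between them. Each tissue's log2(FPKM + 1) was set against the gene's mean over the 7 tissues, and medians were taken over detected rows. The difference of medians was 0.38 in root (0.02 in long loci, -0.36 in other rows), 0.36 in callus (0.59 and 0.23) and 0.14 in flower (-0.06 and -0.20). It was -0.37 in bud (-0.29 and 0.08), -0.10 in leaf, -0.02 in silique and 0.00 in stem. After rescaling by trimmed means the differences were 0.49 in root, 0.33 in callus, 0.14 in flower and -0.35 in bud. Relative to other rows, long loci were thus placed higher in root and callus and lower in bud under both scalings. The placing was shared by non-overlapping loci of 7500 to 10000 bases, whose median deviations as deposited were 0.08 in root, 0.49 in callus and -0.29 in bud. It was not shared by the overlapping loci of 10000 bases or more, at -0.41 in root, 0.23 in callus and 0.17 in bud. Of the detected overlapping loci, 23.8% (20.2% to 27.9%) were highest in callus and 55.6% (51.0% to 60.0%) were detected in all 7 tissues. Counted as fragments, the long loci took 1.55% of all fragments in gene models in callus, 1.18% in flower, 1.0% in root, 0.913% in stem, 0.911% in silique, 0.729% in leaf and 0.641% in bud.

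On the deposited scaling, callus was more often highest at long coding length, in long loci and in other rows. Of detected long loci with 6000 coding bases or more, 41 of 48 were highest in callus (85.4%, 72.8% to 92.8%), against 24 of 38 other rows of that length (63.2%, 47.3% to 76.6%). Between 4000 and 6000 bases the shares were 62.3% (33 of 53, 48.8% to 74.1%) in long loci and 53.7% (47.9% to 59.5%) in other rows. Between 3000 and 4000 bases they were 27.3% (3 of 11, 9.75% to 56.6%) and 41.9% (38.4% to 45.5%). Between 2000 and 3000 bases they were 34.8% (8 of 23) and 32.8%, and between 1000 and 2000 bases 34.0% (16 of 47, 22.2% to 48.3%) and 23.0%. Under 1000 bases they were 33.3% (14 of 42, 21.0% to 48.4%) and 21.2% (20.5% to 21.8%). The intervals of long loci and other rows overlapped in every band, and the share of long loci was the higher one in all but that of 3000 to 4000 bases. Pooled, they did not overlap. Under 3000 bases 38 of 112 long loci (33.9%, 25.8% to 43.1%) and 23.0% of other rows (22.5% to 23.5%) were highest in callus, and from 3000 bases upward 77 of 112 long loci (68.8%, 59.7% to 76.6%) and 45.8% (42.8% to 48.9%). In the upper pool the long loci also had longer coding sequences, with a median of 5810 bases against 3567. The finer bands above 3000 bases were chosen after the values were seen. After rescaling by trimmed means the trend was not seen in long loci, where callus was highest for 21.8% under 3000 coding bases (15.1% to 30.4%), 17.0% at 3000 bases or more (11.1% to 25.0%) and 14.6% at 6000 bases or more (7.25% to 27.2%). In other rows the shares on that scaling were 12.0%, 14.3% and 18.9%, so from 6000 bases upward the order of long loci and other rows was turned, with overlapping intervals.

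**Figure D4:**
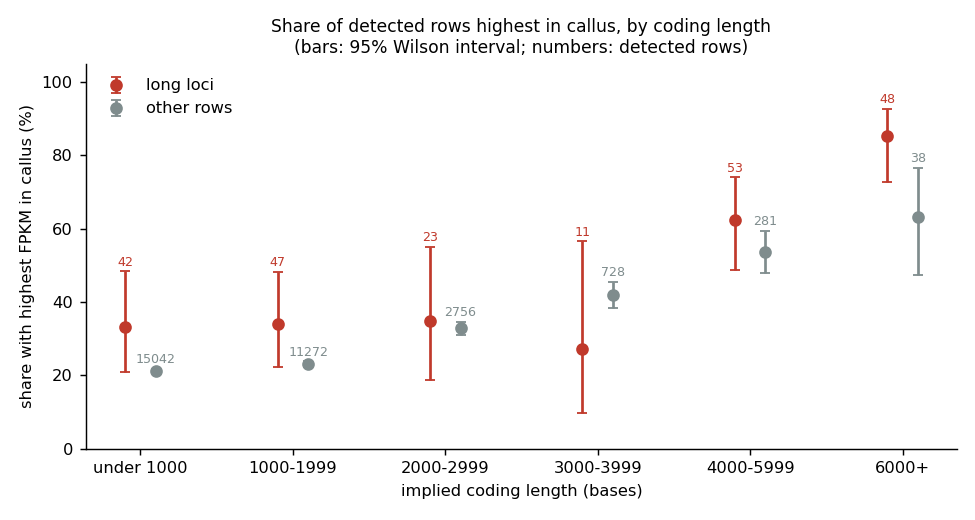
Share of detected rows whose highest FPKM was in callus, by implied coding length in bases, for long loci and other rows, with 95% Wilson intervals and the number of rows above each point. On the deposited scaling, the share among other rows goes up from 21.2% under 1000 bases to 63.2% at 6000 bases or more, and among long loci it is 33.3% and 85.4% in the same bands.

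Root and bud also differed with coding length. In long loci of 3000 coding bases or more, the median log2 deviation from the gene's mean was 0.21 in root and -0.50 in bud, against 0.06 and -0.28 in other rows of that length. In long loci under 3000 coding bases, it was -0.42 in root and -0.0042 in bud, against -0.37 and 0.10 in other rows. In callus it was 0.62 in the longer and 0.50 in the shorter long loci, against 0.52 and 0.21 in other rows of those lengths. After rescaling by trimmed means, root was highest for 60 of 112 long loci of 3000 coding bases or more (53.6%, 44.4% to 62.5%), against 42.0% of other rows of that length (39.0% to 45.0%), whose coding sequences were shorter. From 6000 bases upward the shares were 56.3% (42.3% to 69.3%) and 54.1% (38.4% to 69.0%), and under 3000 bases 18.2% (12.1% to 26.4%) and 20.5%.

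The longest coding sequences show this profile. Bol001809 was at 5.13 FPKM in bud (4.81 to 5.44), 8.34 in leaf, 9.97 in silique, 10.5 in stem, 11.8 in flower, 23.8 in root and 28.7 in callus (28.0 to 29.5). Bol017079 was at 1.62 FPKM in bud (1.44 to 1.80), 2.55 in leaf, 3.99 in stem, 4.97 in silique, 6.05 in flower, 8.74 in root and 9.93 in callus (9.45 to 10.4). In both, bud was lowest, leaf next, and root and callus highest, with intervals of bud and callus far apart.

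The share highest in callus was larger at longer span up to the threshold, and the bands above it had overlapping intervals. Among rows that overlap no neighbour, the share highest in callus was 20.5% under 1000 bases of span, 30.8% between 3000 and 5000 bases, 40.6% between 5000 and 7500 bases and 47.7% (42.3% to 53.1%) between 7500 and 10000 bases. Within the long loci it was 50% between 10000 and 12500 bases, 53.2% between 12500 and 15000 bases, 55.9% between 15000 and 20000 bases and 36.0% (20.2% to 55.5%) in the 25 detected loci from 20000 bases upward. The share detected in all 7 tissues was 31.4% under 1000 bases and 64.2% (58.8% to 69.2%) between 7500 and 10000 bases, against 63.8% in all long loci. The 413 loci of 7500 to 10000 bases were also detected at a similar share, 77.7%. Across the 232 detected long loci, Spearman's rho of span with the log2 difference between callus and the median of the other tissues was -0.02, and of coding length with it 0.15 over 224 loci.

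**Figure D5:**
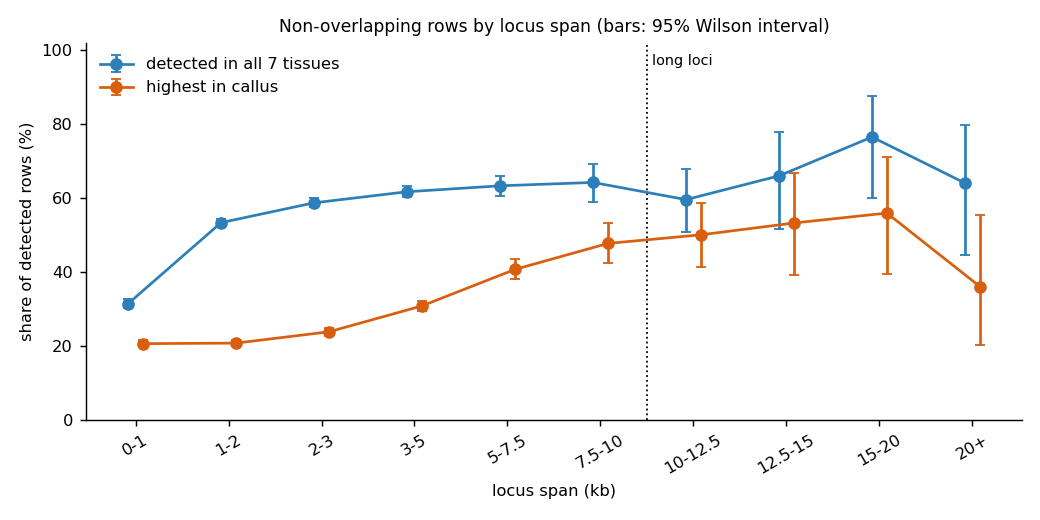
Share of detected rows present in all 7 tissues and share highest in callus, by locus span in kb, for rows that overlap no neighbour, with 95% Wilson intervals. The dotted line marks the threshold of the long loci, whose values lie near those of loci of 7.5 to 10 kb (64.2% in all 7 tissues, 47.7% highest in callus).

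Long loci that differed strongly between tissues were few. Tissue enrichment meant a difference of 2 or more (4-fold) in log2(FPKM + 1) between the highest tissue and the one after it. This held for 6 of 232 detected long loci (2.59%, 1.19% to 5.53%), against 7.18% of other rows (6.90% to 7.48%) and 7.15% of all rows. Callus had 3 of them (1.29%, against 1.23% of all rows), bud 2 (0.862%, against 1.83%) and leaf 1 (0.431%, against 0.481%). Silique, flower, stem and root had 0, which at 232 loci allows a share of up to 1.29% each, and all rows had 1.81% in silique, 0.63% in flower, 0.165% in stem and 1.01% in root.

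In callus, Bol021969, the locus with the shortest coding sequence, was at 167 FPKM (151 to 183) and at 26.1 FPKM in root, the next tissue. It was at 18.6 FPKM in silique, 15.6 in flower, 13.1 in bud, 6.47 in leaf and 5.85 in stem. Bol043693, the second longest locus, was at 5.33 FPKM in callus (3.24 to 7.42), 0.373 in bud, 0.184 in silique and 0.0918 in flower (0.5 of a fragment), and it was listed at 0 in leaf, stem and root. There, 3 fragments would have been 0.553 to 0.560 FPKM, and the callus value rested on 26 fragments. The third, Bol014614 (Scaffold000172_P1, 179921 to 191340), named after its values were seen, was at 9.18 FPKM in callus and between 0.511 FPKM (bud) and 1.28 FPKM (flower) elsewhere.

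In bud, Bol033072 (Scaffold000045, 645115 to 659719) was at 36.7 FPKM (32.1 to 41.3), 2.60 in stem, 1.43 in flower, 1.27 in callus, 1.14 in leaf, 0.144 in root and 0.142 in silique, the last 2 on 1 fragment each. Bol004308 (Scaffold000326, 5733 to 16633) was at 18.8 FPKM in bud (17.5 to 20.0), 2.42 in stem, 2.0 in root, 1.84 in callus, 1.45 in flower, 1.18 in silique and 0.552 in leaf. In leaf, Bol031749 (Scaffold000053, 1262788 to 1287644) was at 39.1 FPKM (34.4 to 43.8), 6.32 in callus, 4.87 in root, 1.44 in stem, 0.567 in flower and 0.425 in silique, and was listed at 0 in bud. All 3 stood clear of the next tissue by the deposited intervals. They were chosen for a 4-fold difference from that tissue, so this adds no support.

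Between pairs of tissues, a smaller share of long loci than of other rows passed the 4-fold limit in both directions of every pair tested. At a 2-fold limit this order turned for flower above bud, with 16.1% of long loci (11.7% to 21.7%) against 11.8% of other rows, and for root above stem, with 23.1% (17.9% to 29.3%) against 19.7%. At 4-fold, the interval of the long loci reached the share of other rows for flower above bud, leaf below root, leaf above stem, and callus above and below root. For flower over bud, 6 of 205 long loci were higher (2.93%, against 3.60% of other rows and 3.6% of all rows) and 9 were lower (4.39%, 2.33% to 8.13%, against 8.32% and 8.29%). The median long locus was 0.24 higher in flower on the log2 scale, while the median other row was 0.31 lower. Bol009051 (Scaffold000240, 608570 to 619708) reached 24.5 FPKM in flower, against 2.25 FPKM in bud. Bol009442 (Scaffold000233, 313928 to 324049), with 6600 coding bases, reached 78.5 FPKM in flower, against 12.3 FPKM in bud. The largest decreases were Bol033072, given above, and Bol023148 (Scaffold000102, 930204 to 941739), with 0.114 FPKM in flower, on 2 fragments, against 15.7 FPKM in bud.

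For silique over flower, 3 of 208 long loci were higher (1.44%, 0.492% to 4.15%, against 6.62% of other rows and 6.58% of all) and 4 were lower (1.92%, 0.75% to 4.84%, against 5.97% and 5.94%). Bol002431 (Scaffold000388, 72056 to 82396) had 53.2 FPKM in silique, against 0.338 FPKM in flower, a log2 difference of 5.34, and was higher still in stem, at 82.8 FPKM. Bol030257 (Scaffold000061, 570461 to 586833) had 2.0 FPKM in silique, against 16.2 FPKM in flower, and Bol009442 had 15.8 FPKM in silique, against 78.5 FPKM in flower.

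For leaf over root, 10 of 207 long loci were higher (4.83%, 2.64% to 8.66%, against 13.8% of other rows and 13.7% of all) and 11 were lower (5.31%, 2.99% to 9.26%, against 8.66% and 8.64%). The median long locus was 0.11 lower in leaf and the median other row 0.54 higher, on the log2 scale. Bol015152 (Scaffold000167, 576465 to 587912), with 285 coding bases, had 32.8 FPKM in leaf and was listed at 0 in root, where 3 fragments would have been 0.769 FPKM. For Bol011670 the log2 difference was 3.89, with 133 FPKM in leaf against 8.05 FPKM in root. In the other direction, Bol019809 and Bol027495 had log2 differences of -6.69 and -4.11.

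For leaf over stem, 6 of 207 long loci were higher (2.90%, 1.34% to 6.18%, against 5.95% of other rows and 5.93% of all) and 6 were lower (2.90%, against 7.68% and 7.64%). Bol031749 led the increases, with a log2 difference of 4.04, followed by Bol012747 (Scaffold000194_P1, 460427 to 477159), with 53.4 FPKM in leaf against 5.74 FPKM in stem. The decreases were led by Bol019809, at -5.08, and Bol009051, at -3.44.

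For root over stem, 5 of 208 long loci were higher (2.40%, 1.03% to 5.5%, against 6.59% of other rows and 6.55% of all) and 13 were lower (6.25%, 3.69% to 10.4%, against 12.1% and 12%). The median long locus was 0.36 higher in root, and the median other row 0.11 lower. Bol045357 (Scaffold000001_P2, 2811721 to 2822401) reached 12.6 FPKM in root, against 0.107 FPKM in stem. Bol010464 (Scaffold000221_P1, 112861 to 126569) reached 10.3 FPKM in root, against 0.588 FPKM in stem. The decreases were led by Bol002431 and Bol011670, at -6.01 and -5.55.

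For callus over root, 20 of 215 long loci were higher (9.30%, 6.10% to 13.9%, against 13.8% of other rows and 13.8% of all) and 3 were lower (1.40%, 0.476% to 4.02%, against 2.89% and 2.88%). The largest increases were Bol011670 and Bol009229 (Scaffold000236, 396195 to 406876), the second at 59.0 FPKM in callus, against 1.76 FPKM in root. The largest decreases were Bol019809 and Bol027495, at -2.46 and -2.15. The median log2 difference was 0.60 in long loci and 0.65 in other rows. The sign of a pair's median is that of the deposited scaling. Rescaling by trimmed means lowered callus by 0.40 and leaf by 0.20 and raised root by 0.41. A pair moves by the shifts of both its tissues, which add up where they go in opposite directions. Pair medians were not recomputed after rescaling, so their signs may not hold on that scale. These 6 pairs share libraries with each other, so their counts are not independent. The shares past the fold limits were not compared at similar coding length.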

How the data were processed

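Per the file headers, the authors deposited FPKM with a lower and an upper bound for 39481 genes in 7 tissues. The submitters' processing notes name TopHat 1.0.13. Which program gave the FPKM values, and on which genome build and annotation, is not given in the sources used here. Per the labels' protocols, no step marked strand, so reads of a locus and of a gene inside it cannot be told apart.

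Fragments were implied by reading each upper bound as FPKM plus 2 standard deviations of a count. Whole numbers came out for 88.8% of 215412 values above 0, with a tolerance of 0.02 or, where wider, of 3e-06 times the count to the power 1.5. Loci without introns, whose span is their length, fixed the scale. The lengths obtained for 35555 genes were multiples of 3 in 98.9%, within 0.3 bases, and are therefore coding lengths without UTRs. Gene models held 8459141 (flower) to 10598033 (root) fragments.

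Members, lists and bands were chosen with earlier results of these data known. Detection was an FPKM of 1 or more, and log2 values had a pseudocount of 1. The IDs named were the 3 longest loci, those beside the span threshold, the 2 highest in each tissue, the 2 most enriched in each tissue, the 2 largest changes in each direction of each pair, the 2 most even, the 2 longest listed at 0, and the 2 longest and 2 shortest coding lengths. Changes, enrichment and evenness needed a highest FPKM of 10, or of 1 where no enriched locus reached 10. Alternatives were other span limits, detection thresholds, pseudocounts, fold limits and scalings, and, added after the data were seen, coding length. Simulated counts were used to check the implied fragments, the coding lengths and the calling of enriched loci. The overlap rule, the breadth and highest-tissue shares, the coding length bands and the rescaling were not simulated. Python 3.11.15, pandas 2.3.3 and scipy 1.17.1 were used. PCR copies were not marked, so intervals cover counting error only.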

Additional observations from a re-analysis of the deposited data

How the results depend on the processing

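Values are for long loci unless other rows are named. Of the main results under each alternative, 119 values were labelled the same, 48 moved and 3 reversed. The same meant that the value of long loci stayed within its reported interval. The size of the difference from other rows was not part of this label. Reversed was used only where the reported intervals of long loci and other rows did not overlap. Among the other results 114 were labelled the same, 36 moved and 2 reversed. Some values labelled the same came close to other rows or changed order. With coding length within the quartiles of the long loci, detection in all tissues was 60.7% against 59.3% of other rows. Median tau was then 0.330 against 0.338. Root was highest for 12.7% against 11.5% at a span of 5000 bases or more. Silique was highest for 13.4% against 11.6% under 3000 coding bases. Both orders were opposite to those reported. The coding length alternatives were chosen after seeing the data, and the cause of the changes was not tested. No paired analysis was possible because there was no second library of any tissue and no test was made.

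Detection in any tissue was 83.2% at a span of 5000 bases or more, 86.2% (89.3% of other rows) with coding length within the quartiles of the long loci, 86.1% at 0.5 FPKM, 88.2% (93.6% of other rows) at 3000 coding bases or more and 83.0% (85.1%) below. Detection in all tissues was 71.2% at a span of 15000 bases or more and 76.8% at 3000 coding bases or more. At 2 FPKM it was 49.3% (44.9% of other rows). Below 3000 coding bases it reversed, with 50% against 50.9% of other rows. The median highest FPKM was 12.4 at a span of 15000 bases or more, 12.6 with overlapping loci included and 7.80 without a filter. Below 3000 coding bases it was 12.6 (13.8 in other rows). Median tau was 0.199 and 0.282 with pseudocounts of 0.1 and 0.5, 0.376 without a filter, 0.281 without callus and 0.277 at 3000 coding bases or more. It reversed below 3000 coding bases, with 0.397 against 0.392 in other rows.

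Callus was highest for 43.1% at a span of 5000 bases or more and 32.5% with overlapping loci included. It was highest for 22.2% with equal upper quartiles (13.4% of other rows), 19.1% with trimmed means (12.3%) and 54.3% with fragments in gene models (26.1%). Root was highest for 33.9% (19.5%), 34.8% (21.2%) and 6.47% (9.61%) on the same scalings. At 3000 coding bases or more callus was highest for 68.8%, and below for 33.9%. Bud reversed, with 14.6% against 14.4% of other rows once overlapping loci were included and 5.36% against 4.87% at 3000 coding bases or more. Enriched loci were 5.60% with a pseudocount of 0.1 (11.5% of other rows), 13.8% at 2-fold (22.4%) and 0.893% at 3000 coding bases or more (2.20%).

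At a 2-fold limit, 16.1% were higher for flower over bud (11.8% of other rows, the opposite order to that at 4-fold) and 12.7% lower (26.1%). For silique over flower 12.5% were higher (24.4% of other rows) and 7.21% lower (14.6%). For leaf over root 20.3% were higher (36.5%). The lower share for leaf over root was 16.4% (12.0% to 22.1%), near the 17.4% of other rows. For leaf over stem 15.0% were higher (26.5%) and 10.1% lower (17.1%). For root over stem 23.1% were higher, which reversed against 19.7% of other rows, and 16.3% lower (27.4%). For callus over root 29.3% were higher (36.5%). With a pseudocount of 0.1, the higher share was 6.73% for silique over flower (12.6% of other rows) and 11.6% for leaf over root (23.6%). It was 7.25% for leaf over stem (13.1%), 8.17% for root over stem (11.8%) and 16.7% for callus over root (23.6%). The lower share was 7.73% for leaf over stem (11.8%) and 10.6% for root over stem (19.1%). With a pseudocount of 0.5, 9.18% were higher for leaf over root (18.5% of other rows). With equal upper quartiles, 5.71% were higher for root over stem (8.24%) and 5.71% for callus over root (9.18%). With trimmed means, 5.69% were higher for root over stem (8.06%) and 5.71% for callus over root (8.69%).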
